A study of Mus musculus with 3 samples.

Results

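The genes described here are 6 members of the mouse Ly6 family, Ly6a, Ly6a2, Ly6c1, Ly6c2, Ly6e and Ly6i, out of 55357 genes counted. They were found by their symbols in the deposited gene lists. They had been chosen from earlier results on the same data, by their UMI levels across cell classes and libraries, so the levels below are a description and carry no test. The family is known for surface proteins, but what was counted is RNA, as unique molecular identifiers (UMIs, tags that count each captured RNA molecule once). The 3 libraries came from lungs of wild-type C57BL/6 mice taken 24 h after intratracheal instillation. The first group received 4 mg/kg LPS (bacterial lipopolysaccharide, which inflames the lung) together with 6 µg of Reg3g, the second 4 mg/kg LPS alone and the third PBS, each in 50 µL. Reg3g is a secreted C-type lectin known for binding and killing Gram-positive bacteria at epithelial surfaces. Cells of 3 mice were pooled into the single library of each group after sorting of live CD45+ Ly6G- F4/80+ cells that carried CD11b or CD11c. Mouse-to-mouse spread therefore cannot be seen, no p-value was computed, and every interval below is a 95% interval that covers counting error only.

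Ly6 proteins are small, cysteine-rich proteins held on the outer face of the cell membrane by a GPI (glycosylphosphatidylinositol) lipid anchor, and they share the three-finger fold of the Ly6/uPAR superfamily. Several of them serve as lineage markers in mouse immunology. Ly6a is Sca-1, the stem cell antigen, present on endothelial cells and on activated lymphocytes and inducible by interferons. Ly6c1 and Ly6c2 encode the Ly6C antigen, whose high level marks classical (inflammatory) monocytes and whose low level marks nonclassical (patrolling) monocytes. Ly6e is a widely expressed, interferon-inducible member known for limiting coronavirus entry.

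The 6 genes lie within 180.1 kb of chromosome 15 (GENCODE M21 annotation, GRCm38, matched by gene identifier). Ly6e (ENSMUSG00000022587, chr15:74955051-74959905) is on the plus strand and the other 5 are on the minus strand. These are Ly6i (ENSMUSG00000022586, chr15:74979534-74983430), Ly6a (ENSMUSG00000075602, chr15:74994877-74998031), Ly6c1 (ENSMUSG00000079018, chr15:75044018-75048830), Ly6c2 (ENSMUSG00000022584, chr15:75108158-75111970) and Ly6a2 (ENSMUSG00000102051, chr15:75131377-75135128). The annotation calls 5 of them protein-coding, whereas it lists Ly6a2 under the name I830127L07Rik as a transcribed unprocessed pseudogene. Whether Ly6a2 RNA yields a surface protein was not measured.

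**Figure D1:**
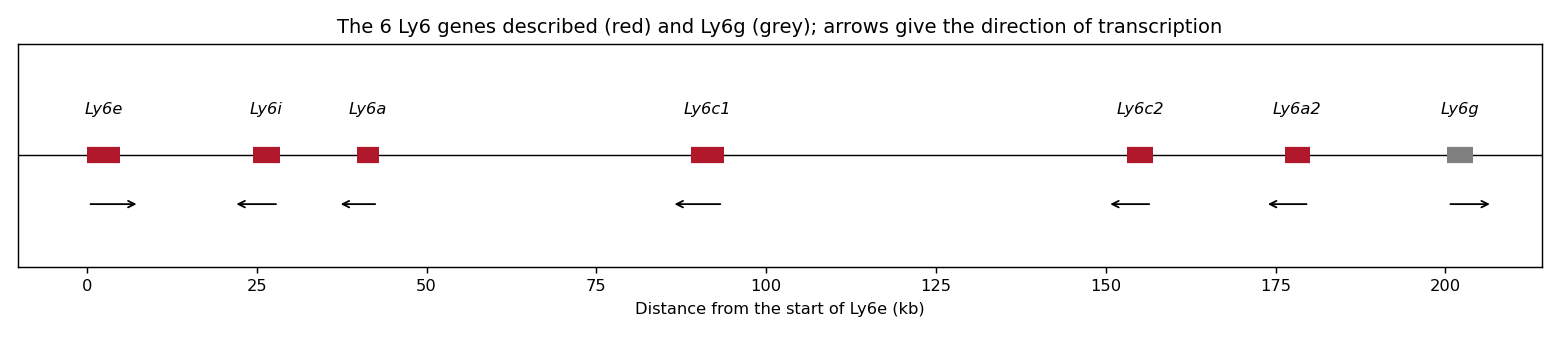
Positions of the 6 Ly6 genes (red bars) and of the neighbouring Ly6g (grey bar), in kb from the start of Ly6e, with arrows for the direction of transcription. Ly6a2 starts 180.1 kb from the start of Ly6e and Ly6c2 at 156.9 kb.

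Promoter windows, from 250 bases before to 50 bases after the gene start, were taken from RefSeq (GRCm38.p6) for 3 of the 6 genes, Ly6c2, Ly6a2 and Ly6c1. They are shown because Ly6c2 and Ly6a2 both favoured classical-monocyte-like cells but differed in the size of their LPS against PBS ratios there. All 3 are on the minus strand and are printed 5′ to 3′, and capitals mark the bases that are not identical in an alignment to the second gene named.
Ly6c2, chr15:75111922-75112221, against Ly6a2: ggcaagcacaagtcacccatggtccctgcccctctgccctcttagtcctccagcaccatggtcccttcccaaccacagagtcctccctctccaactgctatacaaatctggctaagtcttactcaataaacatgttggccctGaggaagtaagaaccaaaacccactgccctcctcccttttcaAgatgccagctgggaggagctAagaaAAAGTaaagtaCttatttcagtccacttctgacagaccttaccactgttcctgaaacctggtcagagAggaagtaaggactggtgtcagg
Ly6a2, chr15:75135079-75135378, against Ly6c2: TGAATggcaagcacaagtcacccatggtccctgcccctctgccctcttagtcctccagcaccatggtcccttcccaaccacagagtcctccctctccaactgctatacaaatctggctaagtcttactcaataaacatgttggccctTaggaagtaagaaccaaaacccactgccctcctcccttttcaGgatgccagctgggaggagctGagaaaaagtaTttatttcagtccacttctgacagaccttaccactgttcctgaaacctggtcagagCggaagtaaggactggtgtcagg
Ly6c1, chr15:75048788-75049087, against Ly6c2: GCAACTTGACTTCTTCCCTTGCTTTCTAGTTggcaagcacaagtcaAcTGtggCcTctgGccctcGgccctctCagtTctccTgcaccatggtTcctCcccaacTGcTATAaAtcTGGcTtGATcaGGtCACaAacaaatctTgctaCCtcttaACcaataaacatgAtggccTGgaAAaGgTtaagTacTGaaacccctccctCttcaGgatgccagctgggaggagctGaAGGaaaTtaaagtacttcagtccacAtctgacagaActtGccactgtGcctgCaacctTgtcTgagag
The Ly6c2 and Ly6a2 windows were identical at 290 of 295 aligned bases (98.3%), whereas the Ly6c1 window matched that of Ly6c2 at 208 of 266 aligned bases (78.2%) and that of Ly6a2 at 76.3%. The letters GAGGAAGT, a sequence of the kind bound by the myeloid factor PU.1, occurred in the Ly6c2 window 2 times and in the Ly6a2 and Ly6c1 windows 0 times, counting both strands. Both places are ones where a capital interrupts the match to Ly6a2. Of 32544 promoter windows of this length, 3.11% held these letters. Searched in the same way, the core of the interferon-stimulated response element (GAAA, any 2 bases, GAAA), TTCNNNGAA (the STAT site) and TGANTCA (the AP-1 site) had 0 matches in the 3 windows and occurred in 3.45%, 8.33% and 7.79% of all windows. The motifs were chosen after the windows had been seen, and a match is a description of letters, not of binding.

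Because the genes are related copies, reads can be hard to assign. Of the 91-base words (the length of the sequenced cDNA read) in the last 500 bases of the transcript, 34 of 410 (8.29%) of Ly6c1 also occurred in Ly6c2 transcripts, and likewise 34 of 410 of Ly6c2 occurred in Ly6c1. The count was 0 of 410 for Ly6a, Ly6a2, Ly6e and Ly6i. Aligned transcripts of Ly6c1 and Ly6c2 were 97.6% identical, and those of Ly6a2 and Ly6c2 were 82.4% identical. Values of Ly6c1 are therefore uncertain wherever Ly6c2 is abundant. The sources used here do not say how reads that match both genes were counted.

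The deposited matrices held 10213 barcodes and 60942042 UMIs for LPS with Reg3g, 15015 barcodes and 70474636 UMIs for LPS and 8475 barcodes and 52354207 UMIs for PBS. After filters and removal of likely doublets (droplets holding more than 1 cell), 9281, 13015 and 7860 cells remained in the same order of libraries. The 6 genes took 0.112% of all UMIs with LPS and Reg3g, 0.140% with LPS and 0.0827% with PBS. Cells formed 27 clusters, of which 24 were given a class name from marker genes. All Ly6 genes were kept out of the clustering and the naming. Monocyte-like cells numbered 4124 with LPS and Reg3g, 5935 with LPS and 2264 with PBS, and alveolar-macrophage-like cells 4201, 5139 and 3561. Within both classes the LPS libraries and PBS fell into different clusters. Classical-monocyte-like cells were mostly in clusters 2, 4 and 13 in the LPS libraries and in cluster 7 in PBS. Nonclassical-monocyte-like cells were mostly in cluster 1 and in cluster 9, and alveolar-macrophage-like cells in clusters 0, 5, 6, 12, 15 and 20 and in cluster 3. Interstitial-macrophage-like cells were likewise split, with 131 of 135 and 174 of 178 in cluster 17 in LPS with Reg3g and in LPS, and 426 of 466 in cluster 14 in PBS. The small endothelial-like and fibroblast-like clusters were both led by Sftpc, a gene of alveolar epithelial cells, ahead of their own markers. Pairs of libraries shared 28 to 37 cell barcodes. Levels are given as CPM, the UMIs of a gene divided by all UMIs of the class and multiplied by 1e6.

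RNA set free from broken cells reaches all droplets, and monocyte genes counted in other classes give a measure of it. Plac8, a gene typical of monocytes, was counted in alveolar-macrophage-like cells at 0.835% of its monocyte-like level with LPS and Reg3g, 1.46% with LPS and 0.431% with PBS. For Ccr2, the chemokine receptor of classical monocytes, the figures were 1.04%, 2.02% and 1.13%, and for Vcan 3.10%, 3.83% and 1.43%. Ly6c2 stood at 2.38%, 2.17% and 0.302% of its monocyte-like level and Ly6a2 at 1.41%, 1.82% and 0.265%, among or below those marker genes. The levels of Ly6c2 and Ly6a2 in alveolar-macrophage-like cells are therefore read as background and not as expression. For Ly6c2 these levels were 15.8 CPM (14.5 to 17.3) with LPS and Reg3g, 23.7 CPM (22 to 25.4) with LPS and 3.11 CPM (2.50 to 3.83) with PBS. Ly6e, at 33.5%, 35.7% and 12.1%, and Ly6i, at 113%, 48.6% and 0.878%, were far above the marker genes in both LPS libraries. Ly6a stood between them at 4.88%, 5.12% and 7.76%. Of the other classical monocyte markers in the LPS libraries, F13a1, Gm9733 and Ifi27l2a ran from 0.885% to 3.94%. Hp, Fn1 and Mgst1 ran from 25.3% to 621%, so these 3 do not serve as a measure of free RNA.

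**Figure D2:**
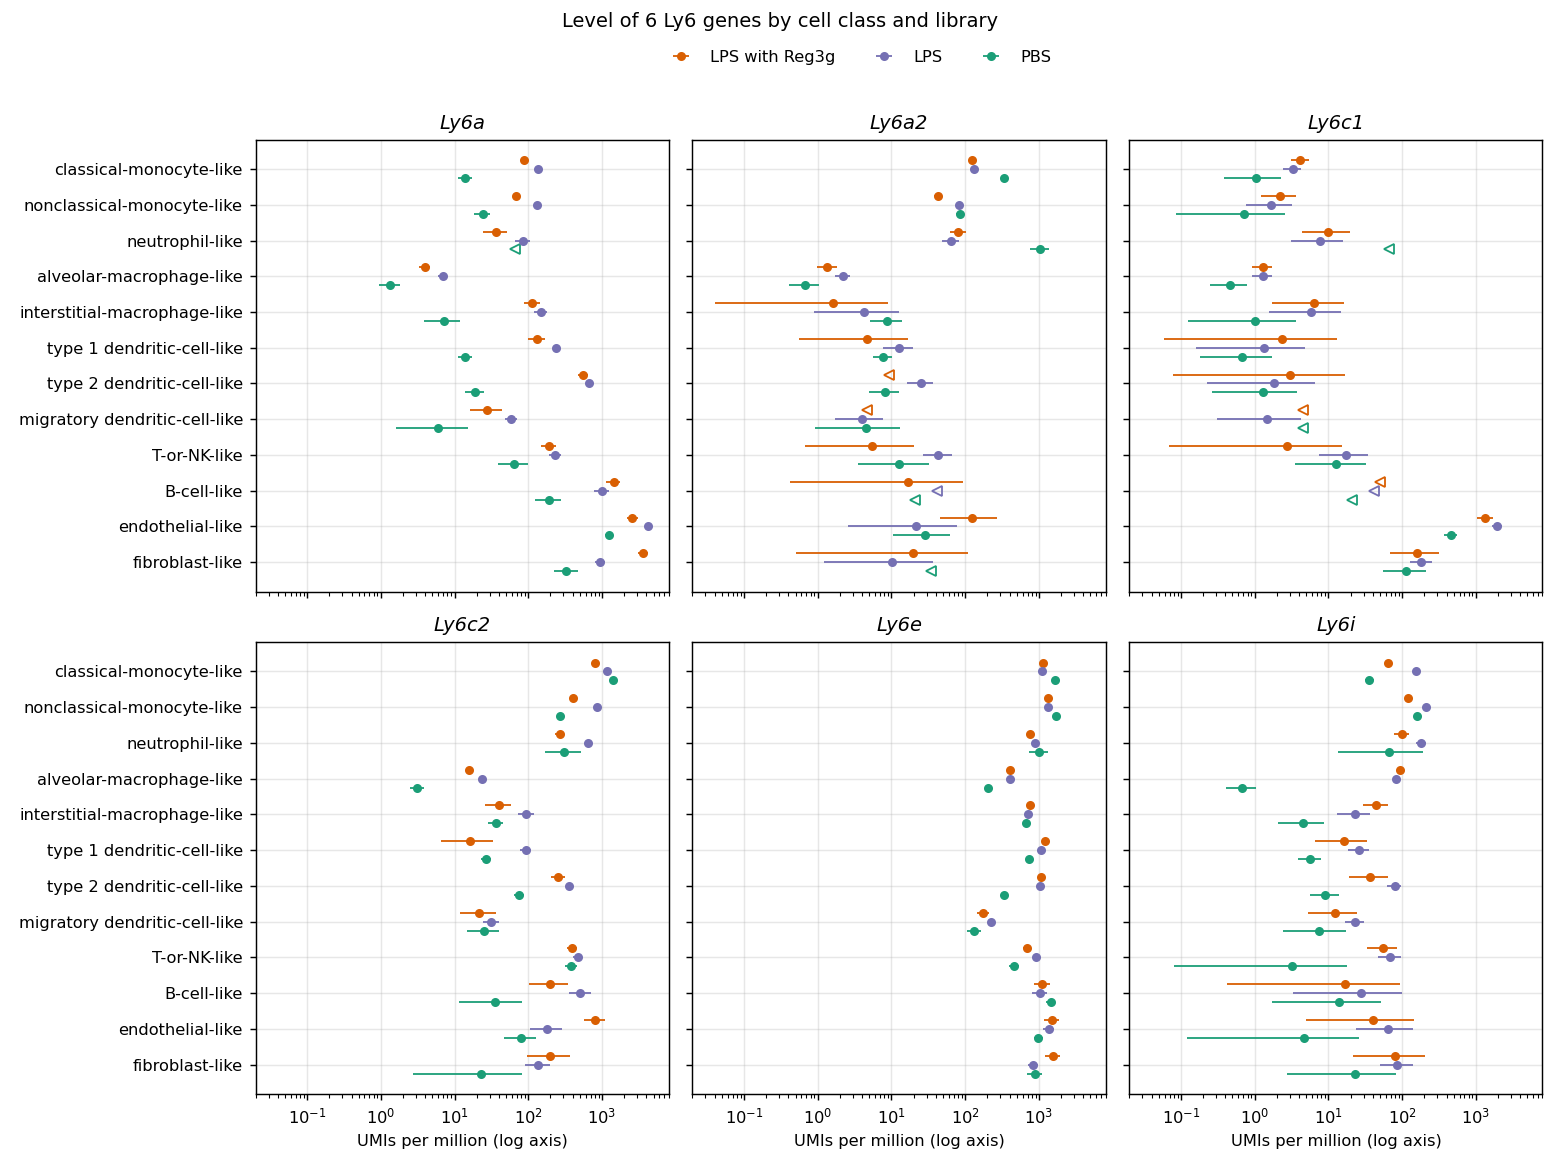
Level of each gene, in CPM on a log axis, in 12 cell classes (rows) of the LPS with Reg3g, LPS and PBS libraries. Points carry exact Poisson 95% intervals, and open triangles mark a count of 0, drawn at the level of 3 counts. Ly6c2 is highest in classical-monocyte-like cells of all 3 libraries and Ly6a2 is high there, while its high point in neutrophil-like cells of PBS comes from 2 of 12 cells. Ly6c1 is highest in endothelial-like cells and Ly6a in endothelial-like, fibroblast-like and B-cell-like cells, while Ly6e was counted in every class.

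Ly6c2, the main gene of the monocyte Ly6C antigen, was far more abundant in monocyte-like than in alveolar-macrophage-like cells of every library. In classical-monocyte-like cells Ly6c2 had 813 CPM (797 to 829) with LPS and Reg3g, 1160 CPM (1144 to 1176) with LPS and 1405 CPM (1375 to 1437) with PBS. In nonclassical-monocyte-like cells it had 402 CPM (388 to 418) with LPS and Reg3g, 857 CPM (832 to 882) with LPS and 267 CPM (248 to 286) with PBS. The classical level was 2.02 times the nonclassical one with LPS and Reg3g, 1.35 times with LPS and 5.27 times with PBS. The contrast between the subsets was thus widest in PBS and narrowest in LPS. Relative to PBS, LPS had 3.21-fold more Ly6c2 in nonclassical-monocyte-like cells (log2 ratio 1.68, 1.57 to 1.80) and slightly less in classical-monocyte-like cells (log2 ratio -0.28, -0.31 to -0.24). The classical sums of the LPS libraries pool clusters of unlike Ly6c2 level, given below, and not all of these lay below PBS. The monocyte-like class as a whole had 1088 CPM with LPS and 1031 CPM with PBS. LPS with Reg3g had less Ly6c2 than LPS in both subsets, with a log2 ratio of -0.51 (-0.55 to -0.48) in classical-monocyte-like and -1.09 (-1.16 to -1.02) in nonclassical-monocyte-like cells.

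The lower Ly6c2 with Reg3g was seen in each of the 4 monocyte-like clusters that both LPS libraries share. Cluster 2 had 1146 CPM with LPS and Reg3g and 1572 CPM with LPS, cluster 4 had 332 and 636 CPM, cluster 13 (cycling cells) had 862 and 1110 CPM, and cluster 1 (nonclassical) had 404 and 858 CPM. With LPS, cluster 2 was thus above the 1405 CPM of classical-monocyte-like cells in PBS, while clusters 4 and 13 were below it. With LPS and Reg3g, clusters 2, 4 and 13 were all below it. Cluster 4 scored lower for classical monocytes (1.13) than cluster 2 (2.18), with interstitial macrophages next (0.683), and held 3 cells in PBS. With the cluster mix of the LPS library applied to both, Ly6c2 had 712 CPM with LPS and Reg3g and 1089 CPM with LPS. Over the 10 classical monocyte genes used for naming, 0 were 2-fold higher or lower in monocyte-like cells with LPS and Reg3g than with LPS, and their median log2 ratio was 0.21. The largest ratios were 0.37 for Mgst1, 0.27 for Fn1, 0.26 for Gm9733 and 0.23 for Plac8. The 10 nonclassical monocyte genes had a median of 0.45, with Ace at 0.64, Eno3 at 0.64, Adgre4 at 0.62 and Itgal at 0.52. These ratios pool the subsets, and nonclassical-monocyte-like cells were 1851 of 4124 with LPS and Reg3g and 1836 of 5935 with LPS. Within classical-monocyte-like cells the medians were 0.22 for the classical and 0.11 for the nonclassical genes. Within nonclassical-monocyte-like cells they were 0.10 and 0.27. Summed neutrophil markers, all 10 of which were detected, had 1186 CPM in monocyte-like cells with LPS and Reg3g, 719 CPM with LPS and 305 CPM with PBS. Summed cycling-cell markers had 369, 527 and 54.7 CPM. The part of either list in the differences of Ly6 genes was not tested.

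Outside monocytes, Ly6c2 was counted in T-or-NK-like cells at 392 CPM (330 to 461) with LPS and Reg3g, 465 CPM (405 to 532) with LPS and 379 CPM (314 to 454) with PBS, with overlapping intervals. Type 2 dendritic-cell-like cells had 256 CPM (204 to 317) with LPS and Reg3g, 358 CPM (323 to 395) with LPS and 75.6 CPM (64.8 to 87.6) with PBS. Both LPS libraries were thus above PBS in that class. Summed classical monocyte markers were also high in these classes, at 3535, 2911 and 1374 CPM in T-or-NK-like and 4941, 4948 and 2079 CPM in type 2 dendritic-cell-like cells of LPS with Reg3g, LPS and PBS, against 8342, 7397 and 10620 CPM in monocyte-like cells, and their part in the Ly6c2 levels was not tested. Neutrophil-like cells, which a Ly6G gate is meant to remove, had 266 CPM in 176 cells with LPS and Reg3g, 652 CPM in 207 cells with LPS and 305 CPM in 12 cells with PBS. Summed classical monocyte markers had 4745 CPM in these cells with LPS and Reg3g and 5718 CPM with LPS. Summed neutrophil markers had 49693 and 19963 CPM in the same order. The part of either list in the Ly6c2 levels of this class was not tested.

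Ly6a2, the gene listed as a pseudogene in the older annotation, was like Ly6c2 higher in classical than in nonclassical monocytes, and in the classical ones it was lower in both LPS libraries than in PBS, by more than Ly6c2. Classical-monocyte-like cells had 125 CPM (119 to 131) with LPS and Reg3g, 133 CPM (128 to 139) with LPS and 336 CPM (322 to 352) with PBS. Nonclassical-monocyte-like cells had 42.9 CPM (38.2 to 48.2) with LPS and Reg3g, 81.4 CPM (74.0 to 89.5) with LPS and 85.6 CPM (75.1 to 97.2) with PBS. Its classical level was 2.91 times the nonclassical one with LPS and Reg3g, 1.63 times with LPS and 3.93 times with PBS. LPS was 2.53-fold below PBS in the classical subset (log2 ratio -1.34, -1.43 to -1.25), while in the nonclassical subset the libraries did not differ beyond counting error (log2 ratio -0.07, -0.30 to 0.16). With Reg3g the difference from LPS lay mainly in the nonclassical subset, at a log2 ratio of -0.92 (-1.14 to -0.71) against -0.09 (-0.19 to 0.00) in the classical one.

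Within the LPS libraries Ly6a2 also varied between clusters. Cluster 2 had 201 CPM with LPS and Reg3g and 203 CPM with LPS, whereas cluster 4, which was led by Arg1 and Ccl2, had 26.6 and 50.0 CPM. Both clusters were below the 336 CPM of classical-monocyte-like cells in PBS, where cluster 4 held only 3 cells. The 2.53-fold difference of the classical subset between LPS and PBS thus takes in this mix of clusters, and cluster 2 alone was nearer to PBS. Among single cells thinned to 1000 UMIs each, Ly6a2 and Ly6c2 went together. In the LPS libraries the classical subset pools clusters that differed in both genes, and whether the pairing held within a cluster was not tested. In classical-monocyte-like cells with a Ly6c2 UMI, 14.9% (12.7 to 17.3) with LPS and Reg3g, 16.3% (14.8 to 17.9) with LPS and 29.3% (26.3 to 32.5) with PBS also had a Ly6a2 UMI. In cells without a Ly6c2 UMI the shares were 5.14% (4.00 to 6.48), 4.12% (3.25 to 5.14) and 11.1% (8.62 to 13.9). Type 1 dendritic-cell-like cells, a class not known for the gene, had shares of 0%, 0.952% and 0.411% at the same thinned depth. Given a Ly6e UMI, classical-monocyte-like cells had Ly6a2 shares of 11.7% with LPS and Reg3g, 13.8% with LPS and 22.4% with PBS. Without a Ly6e UMI the Ly6a2 shares were 5.55%, 6.03% and 19.9%. In the LPS libraries the pairing was thus not particular to Ly6c2. Ly6a2 was also counted 47 times in neutrophil-like cells of PBS (1025 CPM), but all 47 UMIs came from 2 of the 12 cells, so that value describes 2 cells, while it had 80.2 CPM in those of LPS with Reg3g and 63.8 CPM in those of LPS.

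Ly6c1 was highest in endothelial-like cells and rarely counted in monocytes. In endothelial-like cells it had 1325 CPM (1022 to 1688) in 9 cells with LPS and Reg3g, 1948 CPM (1676 to 2251) in 19 cells with LPS and 457 CPM (371 to 558) in 35 cells with PBS. Endothelial cells are outside the intended sort, and so few cells allow no statement on the treatments. In monocyte-like cells Ly6c1 had 65 UMIs (3.45 CPM, 2.66 to 4.39) with LPS and Reg3g, 65 UMIs (2.89 CPM, 2.23 to 3.68) with LPS and 8 UMIs (0.942 CPM, 0.407 to 1.86) with PBS. The LPS libraries did not differ beyond counting error, and the PBS value rests on 8 UMIs. Summed endothelial markers had 89.7, 68.1 and 31.0 CPM in monocyte-like cells of LPS with Reg3g, LPS and PBS, the same order as Ly6c1, and their part in the Ly6c1 counts was not tested.

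Ly6a, which encodes Sca-1, was higher in both LPS libraries than in PBS in every leukocyte class with at least 50 cells in each library. Classical-monocyte-like cells had 88.5 CPM (83.3 to 94.0) with LPS and Reg3g, 137 CPM (131 to 142) with LPS and 14.0 CPM (11.1 to 17.5) with PBS. Nonclassical-monocyte-like cells had 68.2 CPM (62.2 to 74.7) with LPS and Reg3g, 131 CPM (122 to 141) with LPS and 24.0 CPM (18.6 to 30.5) with PBS. LPS was 9.73-fold above PBS in the classical subset (log2 ratio 3.28, 2.96 to 3.62) and 5.46-fold above it in the nonclassical subset (2.45, 2.09 to 2.83). Over monocyte-like cells as a whole, Ly6a had the 112th highest log2 ratio of LPS against PBS among 7669 genes with at least 10 CPM in either library. LPS with Reg3g was below LPS in both subsets, at log2 ratios of -0.63 (-0.73 to -0.52) and -0.94 (-1.12 to -0.77), and in all 4 shared clusters. Among 7375 genes measured in that comparison it had the 21st lowest ratio and Ly6c2 the 23rd lowest.

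Dendritic cells showed the LPS difference in Ly6a as well. Type 2 dendritic-cell-like cells had 552 CPM (475 to 639) with LPS and Reg3g, 658 CPM (611 to 708) with LPS and 18.9 CPM (13.7 to 25.4) with PBS. Type 1 dendritic-cell-like cells had 130 CPM (98.4 to 169) with LPS and Reg3g, 239 CPM (215 to 265) with LPS and 13.9 CPM (11.1 to 17.2) with PBS. Interstitial-macrophage-like cells had 113 CPM (88.6 to 143), 147 CPM (120 to 179) and 7.12 CPM (3.89 to 11.9) in the same order of libraries, and T-or-NK-like cells 190 CPM (148 to 241), 232 CPM (190 to 280) and 63.7 CPM (38.9 to 98.5). The intervals of the LPS libraries lay above those of PBS in these 4 classes. The log2 ratio of LPS with Reg3g against LPS was -0.88 (-1.31 to -0.47) in type 1 and -0.25 (-0.50 to -0.02) in type 2 dendritic-cell-like cells. It was -0.38 (-0.83 to 0.07) in interstitial-macrophage-like and -0.28 (-0.74 to 0.17) in T-or-NK-like cells, where the intervals took in 0. Alveolar-macrophage-like cells were at the bottom, with 3.96 CPM (3.30 to 4.71) with LPS and Reg3g, 6.92 CPM (6.03 to 7.90) with LPS and 1.34 CPM (0.951 to 1.84) with PBS. At the top, Ly6a had 2588, 4172 and 1240 CPM in the few endothelial-like cells of LPS with Reg3g, LPS and PBS, and 1433, 993 and 190 CPM in 25, 23 and 66 B-cell-like cells. Fibroblast-like cells had 3601, 937 and 328 CPM, but only 3 of 12, 13 of 29 and 2 of 13 of these cells had a Ly6a UMI.

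Ly6i had the largest ratio of LPS against PBS of the 6 genes in alveolar macrophages and a much smaller one in monocytes. In alveolar-macrophage-like cells it had 3048 UMIs (95 CPM, 91.7 to 98.5) with LPS and Reg3g, 2550 UMIs (81.3 CPM, 78.2 to 84.5) with LPS and only 19 UMIs (0.672 CPM, 0.405 to 1.05) with PBS. Ly6i with LPS was thus 121-fold above PBS (log2 ratio 6.92, 6.27 to 7.65), the 24th highest ratio among 7848 genes. The PBS level was 0.878% of that in monocyte-like cells, between Plac8 (0.431%) and Ccr2 (1.13%). It cannot be told apart from free RNA, and the size of the ratio depends on it. After thinning to 1000 UMIs per cell, 7.26% (6.49 to 8.09) of the cells with LPS and Reg3g, 6.81% (6.14 to 7.53) of those with LPS and 0.168% (0.0619 to 0.366) of those with PBS had a Ly6i UMI. In B-cell-like cells, a class not known for the gene, the shares at the same depth were 0% (0 to 13.7), 4.35% (0.110 to 21.9) and 0% (0 to 5.44), too few cells to bound the background closely. Type 1 dendritic-cell-like cells had 4.41% (0.919 to 12.4), 3.17% (1.53 to 5.76) and 0.548% (0.149 to 1.40), and by level they had 16.3, 25.9 and 5.64 CPM.

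Among alveolar-macrophage-like clusters the level of Ly6i varied widely. Cluster 20, marked by the interferon-induced genes Cxcl9, Rsad2 and Ifit1, had 303 CPM with LPS and Reg3g and 276 CPM with LPS. Clusters 0 and 5 had 121 and 96.7 CPM with LPS and Reg3g, against 91.5 and 68.1 CPM with LPS. Clusters 6 and 12 had 18.0 and 27.0 CPM with LPS and Reg3g, against 25.5 and 28.4 CPM with LPS. Cluster 15, of cycling cells, was the only alveolar-macrophage-like cluster with at least 50 cells in each library, and it had 35.7 CPM with LPS and Reg3g, 69.3 CPM with LPS and 3.61 CPM with PBS. LPS with Reg3g was thus above LPS in 3 of 6 clusters and below it in the other 3, with cluster 0, the largest, among those above. Cluster 12, among those below, differed only slightly. The log2 ratio of the whole class was 0.23 (0.15 to 0.30).

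**Figure D3:**
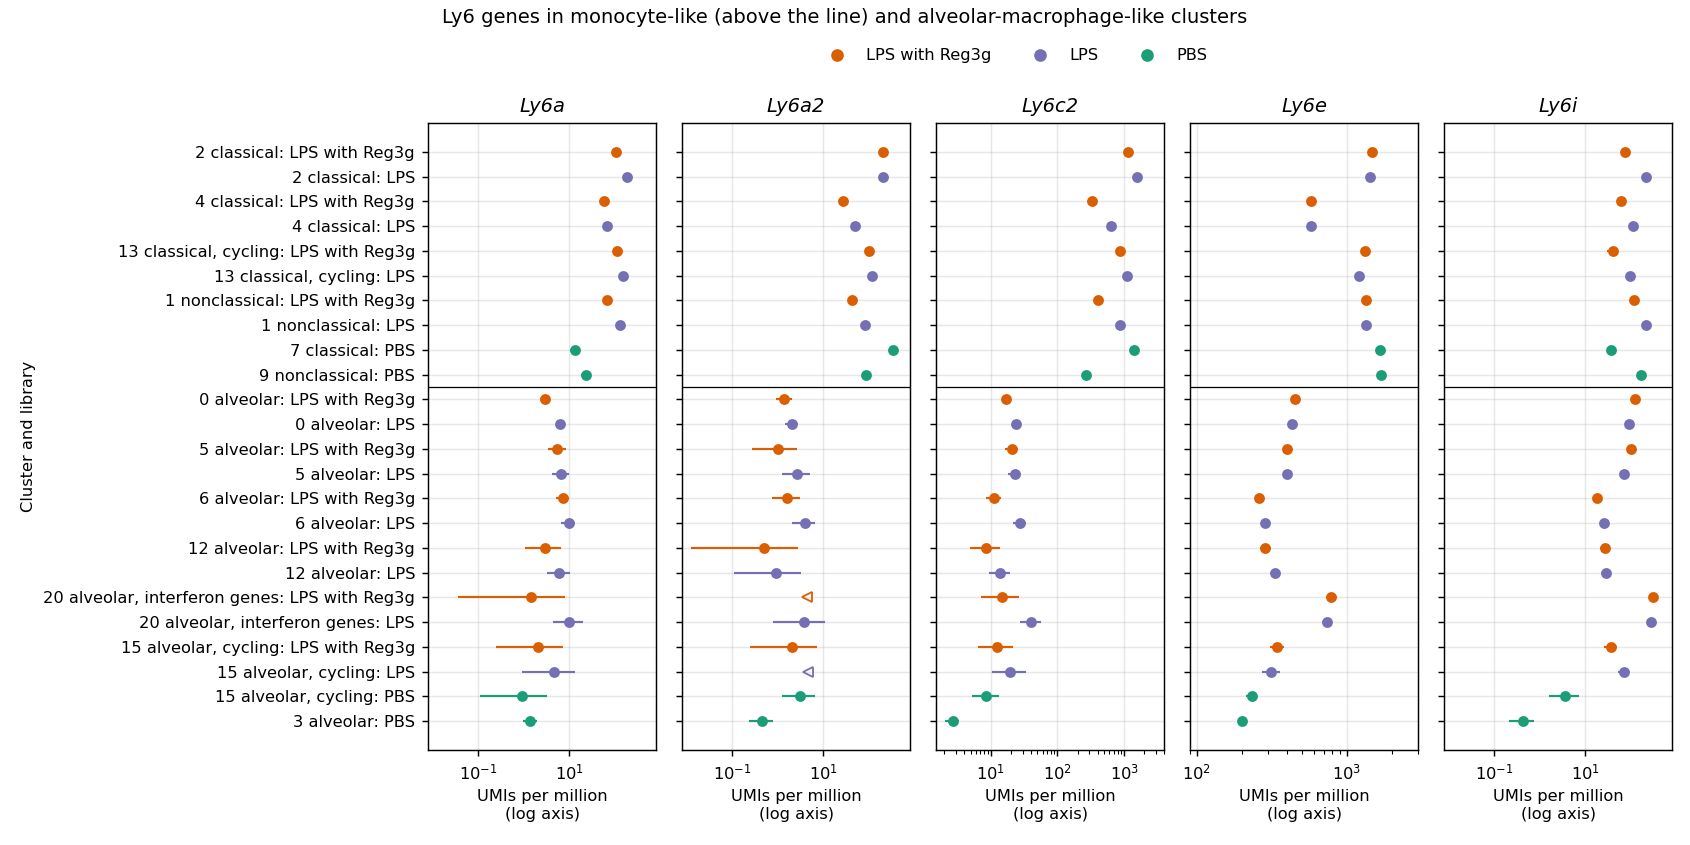
Levels of 5 of the genes, in CPM on log axes that differ between genes, in each monocyte-like (above the line) and alveolar-macrophage-like cluster (below it) with at least 50 cells in the library shown. Points carry exact Poisson 95% intervals and open triangles mark a count of 0. Ly6i is lower with LPS and Reg3g than with LPS in every monocyte-like cluster shared by the LPS libraries, and highest in alveolar cluster 20.

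In monocytes Ly6i behaved differently. Nonclassical-monocyte-like cells had 120 CPM (112 to 129) with LPS and Reg3g, 214 CPM (202 to 227) with LPS and 159 CPM (145 to 175) with PBS. Classical-monocyte-like cells had 63.6 CPM (59.1 to 68.2) with LPS and Reg3g, 153 CPM (147 to 159) with LPS and 36.0 CPM (31.2 to 41.3) with PBS. The nonclassical level was 1.89 times the classical one with LPS and Reg3g, 1.40 times with LPS and 4.43 times with PBS, the reverse of Ly6c2. LPS was 4.24-fold above PBS in the classical subset (log2 ratio 2.09, 1.88 to 2.30) and 1.34-fold above it in the nonclassical subset (0.42, 0.26 to 0.58). LPS with Reg3g was below LPS in both subsets, by 2.40-fold in the classical (log2 ratio -1.26, -1.38 to -1.15) and 1.78-fold in the nonclassical one (-0.83, -0.96 to -0.70). Over the whole monocyte-like class the log2 ratio was -0.99 (-1.08 to -0.91), the 4th lowest of 7375 genes. All 4 shared clusters had it, with 71.8 CPM with LPS and Reg3g and 206 CPM with LPS in cluster 2, 60.8 and 109 CPM in cluster 4, 39.4 and 95.5 CPM in cluster 13, and 118 and 213 CPM in cluster 1.

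Ly6e was the most evenly spread member and differed little between the LPS libraries. Monocyte-like cells had 1202 CPM (1186 to 1218) with LPS and Reg3g, 1146 CPM (1132 to 1160) with LPS and 1668 CPM (1641 to 1696) with PBS. Alveolar-macrophage-like cells had 403 CPM (396 to 410) with LPS and Reg3g, 409 CPM (402 to 416) with LPS and 202 CPM (197 to 208) with PBS. LPS was thus above PBS in alveolar-macrophage-like cells (log2 ratio 1.02, 0.97 to 1.06) and below it in monocyte-like cells (-0.54, -0.57 to -0.51). The log2 ratio of LPS with Reg3g against LPS was -0.02 (-0.06 to 0.01) in alveolar-macrophage-like and 0.07 (0.04 to 0.09) in monocyte-like cells. The monocyte level was not uniform, since cluster 4 had 578 CPM with LPS and Reg3g and 580 CPM with LPS, while the other shared clusters had 1214 to 1461 CPM. In alveolar-macrophage-like cells the interferon-gene cluster 20 was again the highest, at 788 CPM with LPS and Reg3g and 738 CPM with LPS.

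In dendritic cells Ly6e was higher in both LPS libraries than in PBS. Type 2 dendritic-cell-like cells had 1077 CPM (968 to 1196) with LPS and Reg3g, 1029 CPM (969 to 1091) with LPS and 332 CPM (309 to 357) with PBS. Type 1 dendritic-cell-like cells had 1191 CPM (1090 to 1299), 1072 CPM (1020 to 1125) and 735 CPM (714 to 757) in the same order. Interstitial-macrophage-like cells differed little, at 759 CPM (692 to 830), 721 CPM (659 to 787) and 666 CPM (631 to 703). Migratory dendritic-cell-like cells had the lowest Ly6e of the named leukocyte classes in every library, at 174, 227 and 133 CPM.

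Set side by side, the 6 genes had ratios of both signs in monocytes. In monocyte-like cells, LPS against PBS gave log2 ratios past 2-fold for 4 of 6 members, higher for Ly6a (2.97), Ly6c1 (1.62) and Ly6i (1.13) and lower for Ly6a2 (-1.07). Ly6a2 fell short of 2-fold under both other scalings (-0.96 and -0.97), with cells weighted equally (-0.93) and with thinned cells (-0.75), and Ly6c1 had under 10 CPM in both libraries, so 3 of the 5 members at 10 CPM or more passed. Among all genes with at least 10 CPM in either library, 11.0% were 2-fold higher and 8.59% 2-fold lower, and the median of their log2 ratios was 0.02. All 6 members were past 2-fold and higher in the alveolar-macrophage-like cells of LPS, compared with PBS, but Ly6a, Ly6a2 and Ly6c1 stayed below 10 CPM in both libraries, and the level of Ly6c2 is read as background. Ly6e and Ly6i, the remaining members, compare with 5.76% of genes 2-fold higher and 13.9% 2-fold lower, at a median of -0.25. LPS with Reg3g against LPS put 0 of 6 members past 2-fold in either class. Ly6i in monocyte-like cells lay just short of it, and the count there became 1 with either of the other scalings tried. Few genes passed 2-fold in that comparison, with 0.0814% of genes 2-fold higher and 0.0407% lower in monocyte-like cells (median 0.04), and 0.0419% higher and 0.0837% lower in alveolar-macrophage-like cells (median 0.03). Both comparisons use the same LPS library.

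**Figure D4:**
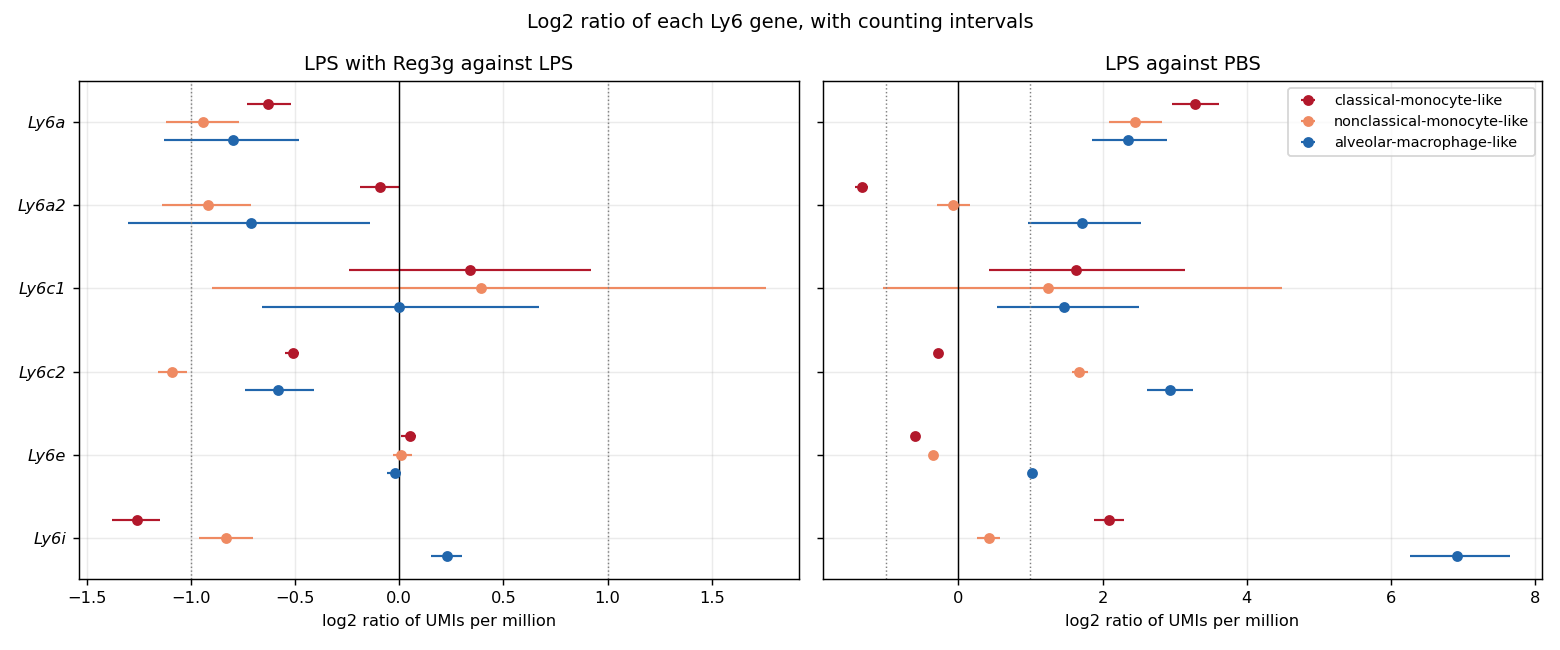
Log2 ratio of each gene for LPS with Reg3g against LPS (left) and LPS against PBS (right) in classical-monocyte-like, nonclassical-monocyte-like and alveolar-macrophage-like cells, with exact conditional binomial 95% intervals for counting error. Dotted lines mark 2-fold. With Reg3g, Ly6i is below LPS in both monocyte subsets and slightly above it in alveolar-macrophage-like cells, while Ly6e stays near 0 in all 3 classes.

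Several Ly6 genes are known targets of interferon signalling, so interferon genes were listed beside them. In alveolar-macrophage-like cells, 12 of 14 interferon-stimulated genes with at least 10 CPM passed 2-fold upward in LPS relative to PBS and 0 downward, and their median log2 ratio was 3.28. The largest were Rtp4 (4.74), Irf7, the factor that amplifies interferon transcription (4.63), the antiviral enzyme Rsad2 (4.56) and Oasl1 (4.10). Of 11 interferon gamma response genes, 8 were 2-fold higher, with a median of 1.33, led by the chemokine Cxcl10 (4.58) and the guanylate-binding proteins Gbp5 (3.34), Gbp2 (3.32) and Gbp3 (2.91). In monocyte-like cells only 3 of 19 interferon-stimulated genes were 2-fold higher, Oasl1 (1.53), Isg15 (1.15) and Irf7 (1.08), and 2 were lower. The median of the list was -0.12, near the 0.02 of all genes. By subset, there were 1 higher and 3 lower of 19 in classical-monocyte-like cells (median -0.43) and 7 higher and 0 lower of 17 in nonclassical-monocyte-like cells (median 0.90). Irf7 had a ratio of 0.63 in the classical and 2.40 in the nonclassical subset, and Isg15 0.89 and 2.24. Of 14 interferon gamma response genes in monocyte-like cells as a whole, 2 were higher, Cxcl10 (3.55) and Cxcl9 (2.80), and 1 was lower, Ciita (-4.03), the regulator of class II antigen presentation, with a median of 0.01.

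With Reg3g, Ly6i, Ly6a and Ly6c2 were lower in monocyte-like cells as a whole, though none of them passed 2-fold there. None of the interferon genes listed beside them passed 2-fold over the whole class either. Of 19 interferon-stimulated genes 0 were past 2-fold, with a median log2 ratio of 0.06, and the largest were Ifit2 (-0.36), Ifit3 (-0.34), Cmpk2 (0.33) and Irf7 (-0.32). Of 13 interferon gamma response genes 0 were past 2-fold, with a median of 0.19 and the largest being Cxcl9 (0.73), Gbp5 (0.63), Irgm1 (0.46) and Cxcl10 (0.38). Cxcl9 and Gbp5 thus differed upward by about as much as Ly6a (-0.74) and Ly6c2 (-0.71) did downward. In classical-monocyte-like cells 1 of 13, Cxcl9 (1.03), passed 2-fold upward, with a median of 0.28, and in nonclassical-monocyte-like cells 0 of 13 did, with a median of -0.02. In alveolar-macrophage-like cells the medians were -0.25 for 14 interferon-stimulated and -0.29 for 11 interferon gamma response genes, and 1 gene, Cxcl9 (-1.12), passed 2-fold, while Ly6i had a ratio of 0.23. Interferon receptors stayed within 2-fold in both comparisons, for all 4 measured of 6 receptor and ligand genes. In monocyte-like cells their LPS against PBS ratios were -0.71 for Ifngr1, 0.49 for Ifnar1, -0.30 for Ifnar2 and 0.03 for Ifngr2. In alveolar-macrophage-like cells they were -0.87 for Ifngr1, 0.71 for Ifnar1, 0.87 for Ifnar2 and 0.75 for Ifngr2.

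Of 40 other genes of the Ly6 locus and the Ly6/uPAR superfamily, 2 reached 10 CPM in monocyte-like cells of LPS or PBS and 1 in alveolar-macrophage-like cells. Cd177, a surface glycoprotein known from neutrophils, had 6.36 CPM in monocyte-like cells with LPS and Reg3g, 8.0 CPM with LPS and 107 CPM with PBS. The log2 ratio of LPS against PBS was -3.74 (-3.98 to -3.50), so Cd177 shared the direction of Ly6a2. Plaur, the urokinase receptor, had 172 CPM with LPS and Reg3g, 200 CPM with LPS and 255 CPM with PBS in monocyte-like cells, and 225, 207 and 165 CPM in alveolar-macrophage-like cells.

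The genes most like each member over 24 sums, 1 for each class with at least 50 cells in a library, were named by Pearson's r of log2(CPM + 1) among 5467 genes. Ly6c2 was most like Oas3 (r = 0.907), followed by Rasgrp2 (0.889), Ifi213 (0.859) and Abi3 (0.854). Ly6a2 was most like Arhgef37 (0.860), Nab1 (0.823), Nfe2 (0.818), Cd177 (0.798) and S1pr5 (0.797). Ly6i was most like Hp (haptoglobin, 0.931), Slfn2 (0.887), Zbp1 (0.877), Ptpn1 (0.864) and Clec4e (0.862). Ly6e was most like Ifi203 (0.856), Morc3 (0.854), Vars (0.845), Was (0.843) and AB124611 (0.836), and Ly6a like Hnrnpd (0.811), Snrnp40 (0.810), Otulin (0.800), Isg20 (0.784) and Limd2 (0.784). Ly6c1 was under the level required. Between members, Ly6a2 and Ly6c2 had the highest r (0.769) and Ly6a and Ly6a2 the lowest (0.144). The 24 sums share 3 libraries, so these values are descriptions.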

How the data were processed

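Lung cells were profiled with droplet single-cell RNA sequencing of transcript 3′ ends in 3 libraries, 1 per group. Matrices of UMI counts per gene and barcode were deposited by the authors, made with Cell Ranger 9.0.1, per the submitters' processing notes, which list Seurat 4.4.0, bcl2fastq 5.0.1 and mm10 as well. No source used here names the annotation. Of 55357 identifiers 52081 (94.1%) matched GENCODE M21, which was used for positions and transcripts.

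Barcodes under 500 genes, under 1000 UMIs or over 15% mitochondrial UMIs were left out (544, 1135 and 343 barcodes of LPS with Reg3g, LPS and PBS). Doublets were the highest Scrublet scores, 0.4% of barcodes per 1000 barcodes (388, 865 and 272). Clustering (scanpy 1.11.5, leidenalg 0.10.2) used 2000 variable genes without Ly6 genes, 30 principal components, 15 neighbours and resolution 1. Each cluster was named after the best-scoring of 20 marker lists, with the cycling-cell list left out of the scoring. The 3 unnamed clusters had high doublet scores or were led by mitochondrial and ribosomal RNA. Cluster 21 scored nearly alike for type 1 (2.53) and type 2 (2.40) dendritic cells and is counted with type 1. The scoring thresholds were set after seeing the clusters.

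Levels (CPM) are sums of counts over the cells of a class in 1 library, scaled by all counts of those cells. A CPM has an exact Poisson, a share a Clopper-Pearson and a ratio an exact conditional binomial 95% interval. Only the ratio interval was checked on simulated counts. These were Poisson draws, which the interval assumes, so the check does not cover UMIs of a gene gathered in few cells. A count of 0 was set to a floor of 3 counts per library. The genes and lists were chosen with earlier results of these data known. Named genes were the 6 members, the 5 genes with the highest r to each, and from each list up to 4 genes with the largest absolute log2 ratio. Some genes that this rule names are not reported here. Alternatives covered cell filters, doublets, clustering, scaling, cell weights, depth and thresholds. A weighting of clusters was added after seeing the data.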

Additional observations from a re-analysis of the deposited data

Results flagged for a closer look

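In 3 cases a gene differed in opposite directions in monocyte-like and alveolar-macrophage-like cells, with neither counting interval reaching 0. The difference between the classes was not tested, since each group is 1 library. Ly6i had a log2 ratio of LPS with Reg3g against LPS of -0.99 in monocyte-like cells and 0.23 in alveolar-macrophage-like cells, where 3 of 6 clusters were lower. Ly6a2 had a log2 ratio of LPS against PBS of -1.07 in monocyte-like cells and 1.71 in alveolar-macrophage-like cells, the last from 69 and 19 UMIs in LPS and PBS, read as background. Ly6e had a log2 ratio of LPS against PBS of -0.54 in monocyte-like cells and 1.02 in alveolar-macrophage-like cells.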

How the results depend on the processing

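Of the member counts past 2-fold, 4 of 6 for LPS against PBS in monocyte-like cells became 3 under both other scalings, with cells weighted equally, thinned, or all together, and for members at 10 CPM or more, and stayed 4 under the others. The 6 of 6 in alveolar-macrophage-like cells became 3 with all cells of a library together and 3 when only members with at least 10 CPM were counted. For LPS with Reg3g against LPS, the 0 in monocyte-like cells became 1 with no cell filter, a stricter cell filter, median-of-ratios scaling, trimmed mean scaling, cells thinned to 1000 UMIs, or clusters weighted as in the LPS library (an alternative chosen after seeing the data), and 3 at a threshold of 1.5-fold. The 0 in alveolar-macrophage-like cells became 2 with thinned cells and 2 at 1.5-fold. With all cells together the log2 ratio of Ly6a2, LPS against PBS, was 0.01 in place of -1.07 in monocyte-like cells, because classes of unequal size are then mixed. Ly6i in monocyte-like cells, LPS with Reg3g against LPS, ranged between -1.14 and -0.28, and Ly6c2 between -0.86 and -0.61. The -0.28 of Ly6i came with all cells of a library together, which takes in the other classes. The all-gene median of LPS against PBS was -0.25 in alveolar-macrophage-like cells and 0.06 or 0.09 when recomputed under median-of-ratios or trimmed mean scaling; in monocyte-like cells it was 0.02, against 0.14 or 0.13. Ly6e in monocyte-like cells changed sign with all cells together, to -0.03 for LPS with Reg3g against LPS and 0.37 for LPS against PBS. No paired analysis was possible because each group has 1 library. Ly6c1 and Ly6a2 outside monocytes rest on few UMIs.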
